A study of Mus musculus with 4 samples.

Results

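The SLAM (signalling lymphocyte activation molecule) family is a set of receptors of the immunoglobulin superfamily on blood cells, and SAP, encoded by Sh2d1a, is the small adaptor through which several of them signal. The 9 genes followed here, Slamf1, Cd48, Cd84, Ly9, Slamf6, Slamf7, Slamf8, Slamf9 and Sh2d1a, were taken by name, and each matched exactly 1 of the 54752 gene IDs in the count table. All 9 passed the filter on low counts, so that no member was lost before testing. Sh2d1a, Slamf1, Slamf6 and Slamf8 passed it through their ALLO counts alone. RNA had been sequenced from whole mouse aortic grafts 4 weeks after transplantation, in 2 ISO libraries and 2 ALLO libraries (n = 2 per group throughout). ALLO grafts are allografts in chronic rejection per the series title, whereas the labels do not spell out ISO. Strain, age, sex and any drug treatment of donors or recipients are not stated in the labels, nor is whether each library came from its own animal. The p-values therefore rest on how far libraries of a group lay apart, and for the ALLO libraries that spread may be technical. The ISO libraries differ in Xist and Ddx3y as female and male tissue do (counts below), so they were not repeats of 1 graft.

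Most SLAM receptors bind the same receptor on a neighbouring cell. Exceptions are CD48 and 2B4, which bind each other, and CD48 also serves as ligand for CD2. In their tails, several members carry tyrosine switch motifs that recruit SAP, which brings in the kinase Fyn, or its relative EAT-2. When these adaptors are missing, the same motifs can engage inhibitory phosphatases. The family is known for tuning T cell help to B cells, killing by NK and CD8 T cells, and the development of innate-like T cells, and its members on macrophages for adhesion and effector functions. SLAMF8 and SLAMF9 have short tails without switch motifs and are known mainly from myeloid cells.

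All 9 members were higher in ALLO grafts, and in each of them both ALLO libraries lay above both ISO libraries. Changes spanned 1.80 (Slamf9) to 7.65 (Slamf8) on the log2 scale, with a median of 5.42, against a median of 0.03 over all 16498 genes tested. By edgeR's quasi-likelihood test, 9 of 9 passed a Benjamini-Hochberg adjusted p of 0.05 as higher, where 18.4% of all tested genes did so and a further 14.8% passed as lower (33.1% in either direction). Sh2d1a, Slamf1, Slamf6 and Slamf8, kept by the filter through ALLO alone, could in practice only be called higher. Both ALLO libraries lay above both ISO libraries for 37.1% of all tested genes and below them for 35.4%. Scaling by library size alone moved the median of all genes by 0.19 and the overall calls from 3032 higher and 2437 lower to 3546 and 1867, and changes are given relative to the TMM scaling. In whole tissue, fewer cells of a type and less RNA per cell cannot be told apart.

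The libraries held 17532344 to 20194854 counts. Markers of smooth muscle, the cell type of the labelled tissue, fell in 6 of 6 cases, with a summed level of 27170 and 27449 CPM (counts per 1000000 scaled counts) in ISO and 1117 and 2312 in ALLO. Ptprc, which encodes the pan-leukocyte protein CD45, stood at 29.8 and 7.18 CPM in ISO replicates 1 and 2 and at 775 and 556 in ALLO (log2 change 5.17 ± 0.78 (SE), edgeR adjusted p = 0.0096). Markers of T cells rose in 10 of 10 cases (summed 5.61 to 14.8 CPM in ISO and 345 to 420 in ALLO), of NK cells in 5 of 5 (0.819 to 2.29 and 26.8 to 29.9), of macrophages and monocytes in 9 of 9 (167 to 438 and 4002 to 4045) and of dendritic cells in 4 of 6 (18.8 to 40.0 and 225 to 343). B cell markers passed in 1 of 7 cases (0.664 to 39.6 and 116 to 271 CPM) and plasma cell markers in 3 of 5 (1.45 to 49.9 and 883 to 2630). Beside these counts, 18.4% of all tested genes were called higher and 14.8% lower. No marker of any of these lists was at 0 in both libraries of a group. All markers of NK cells, B cells and plasma cells were kept by the filter through ALLO, as their ISO counts alone were too few. The same holds for Cd3e, Cd3d, Cd3g, Cd4, Cd8a, Cd8b1 and Cd5 of the T cell list. It also holds for Flt3, Xcr1, Siglech and Ccr7 of the dendritic cell list. Such markers could in practice only be called higher. The smooth muscle marker Tagln shares 67.9% of its exonic bases with other genes and the T cell marker Cd247 60.3%, so both values are uncertain. The part of these cells in the changes of the members was not tested. The ISO libraries were unlike each other. ISO replicate 1 exceeded replicate 2 by 4.15 times in Ptprc, 2.64 times in T cell markers, 59.7 times in B cell markers and 10.6 times in neutrophil markers, whereas NK cell markers were higher in ISO replicate 2 (2.29 against 0.819 CPM). Cd3e, Cd3d and Cd3g had 37 counts together in ISO replicate 1 and 0 in ISO replicate 2. ISO replicate 1 had 10647 counts of Xist and 0 of the Y-linked Ddx3y, and the other libraries at most 8 and at least 2105. The sex of the tissue thus differed within ISO, whereas both ALLO libraries were like ISO replicate 2.

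**Figure D1:**
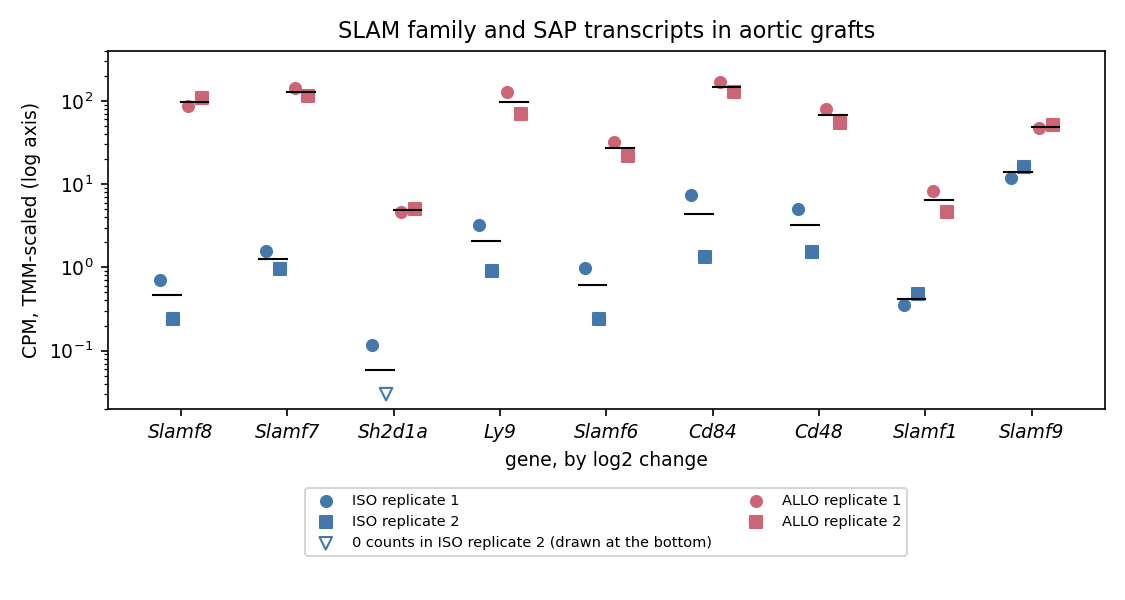
TMM-scaled CPM of each gene (log axis) in the 2 ISO and 2 ALLO libraries, with black bars at the group means and genes ordered by log2 change. Both ALLO libraries lie above both ISO libraries in all 9 genes, with the narrowest gap in Slamf9 (11.9 to 16.1 against 46.7 to 51.2 CPM).

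Cd48 encodes a receptor that is held in the membrane by a lipid anchor and is found on nearly all leukocytes (ENSMUSG00000015355.13, chromosome 1, 171682009 to 171705258, mm10, forward strand). It had 5.03 and 1.51 CPM in the ISO libraries and 79.4 and 54.9 in the ALLO libraries, from 86, 25, 1546 and 1209 counts. The groups were well apart, and within ISO replicate 1 was the higher. Its log2 change was 4.36 ± 0.61 (SE), a 20.5-fold rise (edgeR adjusted p = 0.00814), which became 43.9-fold without ISO replicate 1 and 13.1-fold without ISO replicate 2. Both binding partners of CD48 rose with it. Cd2, the adhesion receptor of T and NK cells, had 53 and 14 counts in ISO and 616 and 481 in ALLO (log2 change 3.75 ± 0.65, edgeR adjusted p = 0.0134). Cd244a, which encodes 2B4, the SLAM receptor of NK and cytotoxic T cells, had 39 and 13 counts in ISO and 250 and 298 in ALLO (log2 change 3.10 ± 0.56, edgeR adjusted p = 0.0147). Both were named after their values had been seen, for their place as CD48 receptors.

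Slamf1, Ly9, Cd84, Slamf6 and Slamf7 are receptors with switch motifs in their tails. Slamf7 (CRACC), a receptor of NK cells, activated macrophages and plasma cells that couples to EAT-2, showed the largest rise of these (ENSMUSG00000038179.13, chromosome 1, 171632403 to 171653035, reverse strand). It had 1.58 and 0.966 CPM in ISO and 143 and 114 CPM in ALLO, from 27 and 16 counts against 2775 and 2511. The libraries within each group lay close together. The log2 change was 6.65 ± 0.34 (SE), or 100.2-fold (edgeR adjusted p = 0.00214), and it ranged from 79.7- to 131-fold when any 1 library was left out. Of its exonic bases 9.24% are shared with Gm37787 on the other strand, which had at most 11 counts in a library, and no source used here gives the strand mode of the counting.

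Ly9 (SLAMF3), a receptor of T and B lymphocytes, had 3.22 and 0.905 CPM in ISO and 128 and 68.8 CPM in ALLO (ENSMUSG00000004707.14, chromosome 1, 171588624 to 171607410, reverse strand). Slamf6 (Ly108), a receptor of T, NK and B cells and a surface marker of progenitor-like CD8 T cells, had 0.994 and 0.241 CPM in ISO and 31.9 and 22.0 CPM in ALLO (ENSMUSG00000015314.10, chromosome 1, 171917515 to 171953170, forward strand). In both, replicate 1 of each group was the higher library and the groups did not overlap. Their log2 changes were 5.57 ± 0.69 and 5.42 ± 0.65 (SE, edgeR adjusted p = 0.00611 and 0.00579), which differ by less than either standard error. The folds were 47.4 and 42.9, and both depended on the ISO libraries. Without ISO replicate 2 they became 30.0 and 26.5. Without ISO replicate 1 the fold of Ly9 became 107, and for Slamf6, with 4 ISO counts left, the ratio of scaled counts was 110.3 with a 95% counting interval of 30.4 to 912.

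Cd84 (SLAMF5), a receptor of lymphocytes, macrophages, mast cells and platelets, had the most counts of the family in ALLO (ENSMUSG00000038147.13, chromosome 1, 171839697 to 171890718, forward strand). It stood at 7.48 and 1.33 CPM in ISO and at 166 and 129 CPM in ALLO, from 128, 22, 3240 and 2832 counts. The ISO libraries differed by 5.64 times, the widest gap within ISO among the 8 members with counts in both ISO libraries, and the ALLO libraries lay above both. Its log2 change of 5.06 ± 0.82 (SE) is a 33.4-fold rise (edgeR adjusted p = 0.0115), 109-fold without ISO replicate 1 and 19.4-fold without ISO replicate 2. The markers of platelets and mast cells, which also carry CD84, moved less. Of 4 platelet markers none passed (summed 24.9 to 40.8 CPM in ISO and 43.2 to 49.9 in ALLO), and of 5 mast cell markers 1, Kit, did (10.1 to 10.6 and 35.5 to 39.5).

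Slamf1 (CD150), the founding member, found on activated T and B cells, dendritic cells and blood stem cells, was scarce (ENSMUSG00000015316.11, chromosome 1, 171767127 to 171801184, forward strand). It had 6 and 8 counts in the ISO libraries and 159 and 101 in ALLO, or 0.351 and 0.483 CPM against 8.17 and 4.58. Here ISO replicate 2 was slightly the higher, unlike in the 4 other receptors with switch motifs. The log2 change was 3.91 ± 0.57 (SE), 15.1-fold (edgeR adjusted p = 0.00902, and 11.1- to 19.4-fold when any 1 library was left out). The 95% counting interval of the ratio was 7.11 to 38.2, and this and the intervals below cover counting error only.

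Slamf8 and Slamf9, the members with short tails, marked the ends of the range. Slamf8 (BLAME), known from macrophages as a brake on reactive oxygen production and migration, had 12 and 4 counts in ISO and 1679 and 2360 in ALLO, or 0.702 and 0.241 CPM against 86.3 and 107 (ENSMUSG00000053318.7, chromosome 1, 172581758 to 172590568, reverse strand). The ISO libraries held few counts, and both ALLO libraries lay far above them. Its log2 change was 7.65 ± 0.47 (SE), or 201-fold (edgeR adjusted p = 0.00216). Without ISO replicate 2 it was 135-fold, and without ISO replicate 1, where 4 ISO counts remain, the ratio of scaled counts was 403 with a 95% counting interval of 112 to 3333. Slamf9, a receptor of dendritic cells and macrophages, was the only member with over 10 CPM in ISO (ENSMUSG00000026548.4, chromosome 1, 172475358 to 172478575, forward strand). It had 204 and 267 counts in ISO and 908 and 1129 in ALLO, or 11.9 and 16.1 CPM against 46.7 and 51.2. The groups were apart, but by far less than in the other members, and ISO replicate 2, the library with less Ptprc, was the higher of the ISO libraries. The log2 change of Slamf9 was 1.80 ± 0.24 (SE), 3.49-fold (edgeR adjusted p = 0.00718), and it kept within 3.01- and 4.04-fold when any 1 library was left out.

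Promoter windows of RefSeq (GRCm38.p6, 250 bases before to 50 bases after the start) are shown for the members with the largest and the smallest change and for the ligand Cd48, because these 3 windows hold the densest matches among the 7 member windows in the RefSeq table (Slamf7, Cd48, Slamf1, Cd84, Slamf6, Slamf9 and Slamf8). Capitals mark matches, on either strand, to an ETS core (GGAAGT), an extended PU.1 form of it (GAGGAAGT, which contains the ETS core), an interferon regulatory factor motif (GAAANNGAAA), a RUNX motif (TGTGGT), an NF-kB motif (GGGNNTNNCC), a T-box motif (GGTGTGA) or the interferon-gamma activated sequence (TTCNNNGAA). The windows lie at chr1:172590519-172590818 (reverse strand), chr1:172475110-172475409 (forward strand) and chr1:171681742-171682041 (forward strand).
Slamf8: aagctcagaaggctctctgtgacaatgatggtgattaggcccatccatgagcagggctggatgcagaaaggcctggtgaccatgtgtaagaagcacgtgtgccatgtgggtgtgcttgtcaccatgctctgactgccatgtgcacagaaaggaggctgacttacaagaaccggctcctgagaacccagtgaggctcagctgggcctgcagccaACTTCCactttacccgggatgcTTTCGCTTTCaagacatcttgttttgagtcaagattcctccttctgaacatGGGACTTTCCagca
Slamf9: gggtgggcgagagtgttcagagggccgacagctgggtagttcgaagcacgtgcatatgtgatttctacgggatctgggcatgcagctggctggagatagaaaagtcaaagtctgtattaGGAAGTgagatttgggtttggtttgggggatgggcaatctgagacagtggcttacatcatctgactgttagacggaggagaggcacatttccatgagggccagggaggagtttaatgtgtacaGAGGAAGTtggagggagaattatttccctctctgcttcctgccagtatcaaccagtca
Cd48: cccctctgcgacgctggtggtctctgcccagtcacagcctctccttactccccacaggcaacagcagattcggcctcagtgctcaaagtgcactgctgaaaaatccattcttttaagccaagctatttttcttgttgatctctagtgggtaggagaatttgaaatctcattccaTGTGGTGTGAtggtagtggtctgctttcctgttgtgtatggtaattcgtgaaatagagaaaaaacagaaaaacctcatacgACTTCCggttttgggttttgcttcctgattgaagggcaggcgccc
The Slamf8 window holds an ETS core match, an interferon regulatory factor match that begins 15 bases before the start and an NF-kB match 36 bases after it. In Slamf9 there are 2 ETS core matches, of which the one beside the start is the extended PU.1 form. Cd48 holds a RUNX match that overlaps a T-box match, and an ETS core match. Over the 7 member windows the ETS core was found in 3 (23.7% of all 32544 distinct promoter windows hold it), the PU.1 form in 1 (3.11%), the interferon regulatory factor motif in 1 (3.45%), RUNX in 2 (16.7%), NF-kB in 2 (18.4%), the T-box motif in 1 (3.95%) and the interferon-gamma activated sequence in 0 (8.33%). The windows of Slamf7 and Slamf1 held no match. A match is only an occurrence of these letters.

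Sh2d1a, which encodes SAP, was nearly absent from ISO grafts (ENSMUSG00000005696.11, chromosome X, 42502453 to 42529330, forward strand). It had 2 counts in ISO replicate 1, 0 in ISO replicate 2, and 91 and 110 in the ALLO libraries, or 4.68 and 4.99 CPM in ALLO. The ALLO libraries were close to each other and above both ISO libraries. With so few ISO counts the change is given as the ratio of summed, scaled counts, 81.6, with a 95% counting interval of 14.2 to 3237 (edgeR adjusted p = 0.00929). Without ISO replicate 1 only a lower bound remains, at least 13.4-fold on a floor of 6 counts per library, and without ISO replicate 2 the ratio was 41.4 (7.23 to 1644). Of its exonic bases, 26.6% overlap Tenm1 on the other strand, which had at most 8 counts in a library, so that reads from that stretch may have been assigned differently.

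**Figure D2:**
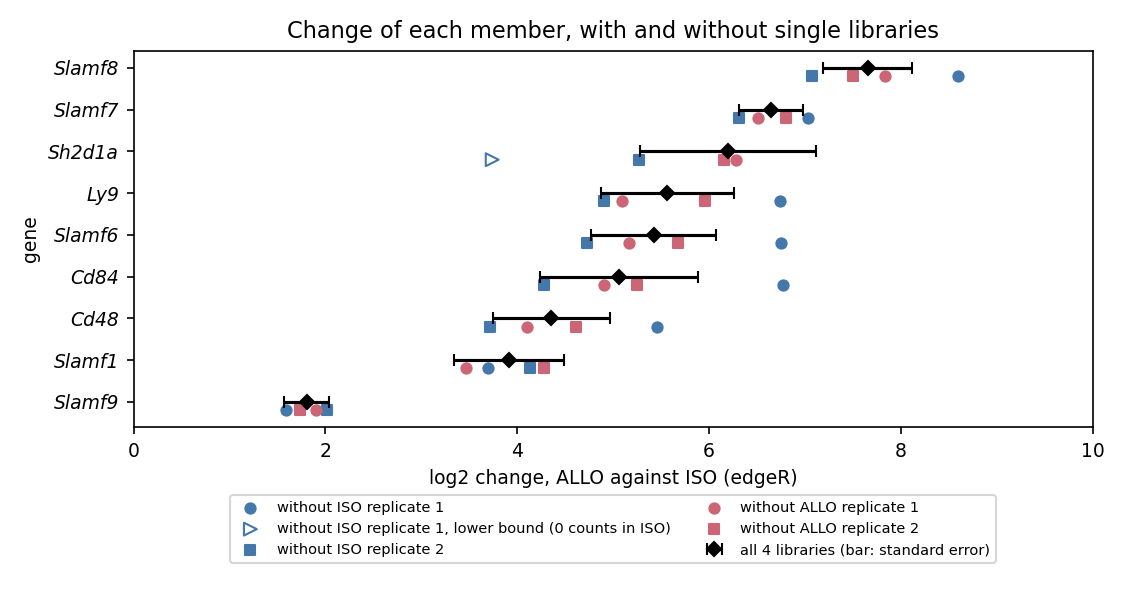
Log2 change between ALLO and ISO for each gene from edgeR (diamonds, with bars of 1 standard error) and the same after leaving out single libraries (small symbols, with an open triangle for a lower bound). Leaving out ISO replicate 1 moved Cd84 from 5.06 to 6.77 and Slamf9 from 1.80 to 1.59.

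Per length, levels between genes can be set side by side as TPM (length-scaled counts that sum to 1000000 in each library). In ISO grafts Slamf9 led with 32.4 ± 9.64 TPM (SD, n = 2), followed by Cd48 with 7.98 ± 5.55, Cd84 with 2.02 ± 1.90 and Ly9 with 1.81 ± 1.32, and Slamf7, Slamf8, Slamf1, Slamf6 and Sh2d1a were each below 1 TPM on average. The libraries of Slamf9 lay above those of Cd48, and those of Cd48 above those of Cd84, whereas the ranges of Cd84 and Ly9, and of Ly9 and Slamf7, overlapped. In ALLO grafts Cd48 led with 150.3 ± 6.67 TPM. Slamf9 (103 ± 28.8), Slamf8 (87.4 ± 31.6), Ly9 (77.6 ± 17.0) and Slamf7 (75.4 ± 4.43) overlapped from each to the next, and Cd84 lay below them with 63.1 ± 2.17. Slamf6 (6.62 ± 0.309), Slamf1 (2.71 ± 0.516) and Sh2d1a (2.42 ± 0.630) were the lowest, as they were in ISO in another order. Slamf8 stood at rank 6 of 9 in ISO and at rank 3 in ALLO, and Slamf9 moved from rank 1 to rank 2. Slamf1 and Sh2d1a overlapped in ALLO.

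Setting the members beside Ptprc asks how each moved relative to a transcript shared by nearly all leukocytes. Cd84 had 25.1 and 18.5 counts per 100 Ptprc counts in ISO and 21.5 and 23.1 in ALLO, and Ly9 had 10.8 and 12.6 against 16.5 and 12.4. In both the groups overlapped. Slamf6 had 3.33 and 3.36 in ISO and 4.12 and 3.95 in ALLO, a small step of 0.27 on the log2 scale without overlap that rests on 17 and 4 ISO counts. Over the 4 libraries the ratios of these 3 receptors stayed between 18.5 and 25.1, 10.8 and 16.5, and 3.33 and 4.12, although the ISO libraries differed 4.15 times in Ptprc itself.

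Slamf8 rose beyond Ptprc, from 2.35 and 3.36 counts per 100 Ptprc counts in ISO to 11.1 and 19.3 in ALLO, a difference of 2.38 in the log2 ratio. Slamf7 went from 5.29 and 13.4 to 18.4 and 20.5, a difference of 1.20 (0.53 when ISO replicate 1 was left out and 1.87 when ISO replicate 2 was). Sh2d1a had 0.392 and 0 against 0.603 and 0.898, too few counts in ISO to give a ratio. In the other direction, Cd48 went from 16.9 and 21.01 to 10.2 and 9.86, a difference of -0.90. Slamf1 went from 1.18 and 6.72 to 1.05 and 0.824, a difference of -1.59 (-0.34 without ISO replicate 2, -2.85 without ISO replicate 1). Slamf9 went from 40.0 and 224 to 6.02 and 9.21, a difference of -3.67 (-2.43 without ISO replicate 2, -4.91 without ISO replicate 1). Per Ptprc count both ALLO libraries lay above both ISO libraries in 3 members (Slamf6, Slamf7 and Slamf8), with Sh2d1a not placed, and below them in 3 (Cd48, Slamf1 and Slamf9), where 2.6% of all tested genes lay above and 92.5% below. These ratios are a description, with 2 libraries per group and no test. The choice of reference sets where 0 lies. Against the summed macrophage genes Csf1r, Cd68 and Adgre1 the log2 difference of each of the 8 members with counts in all libraries is greater by the same 1.35, because these genes rose less than Ptprc. Cd84, Ly9 and Slamf6 then stood at 1.39, 1.64 and 1.61 and Cd48 at 0.44, with both ALLO libraries above both ISO libraries in all 4. Slamf1 stood at -0.25 with overlapping groups, and Slamf9 at -2.32 was still lower in both ALLO libraries.

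**Figure D3:**
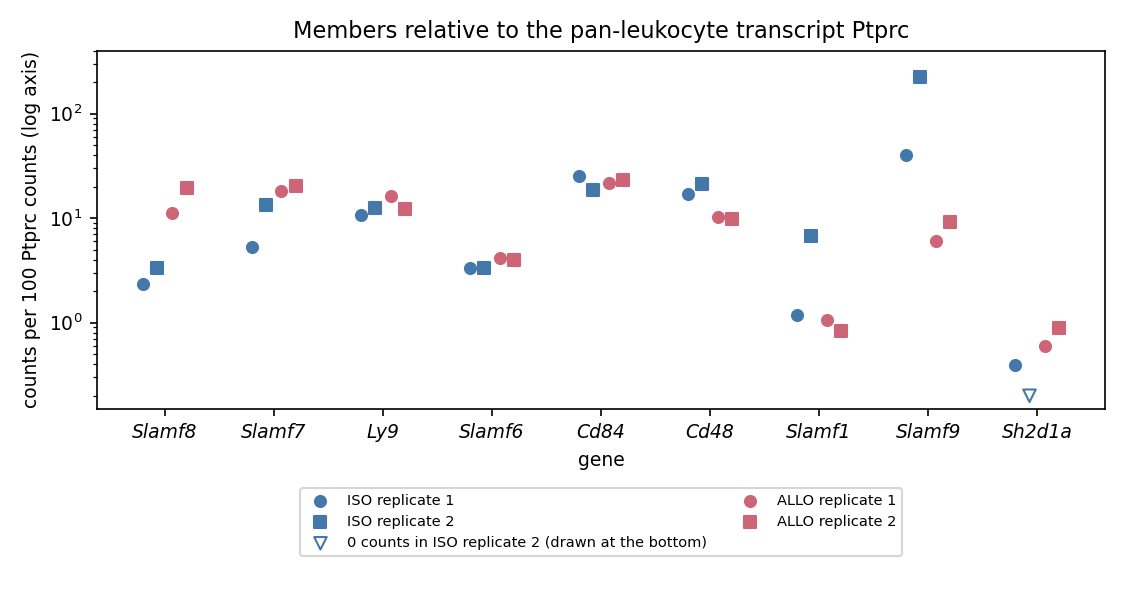
Counts of each gene per 100 counts of the pan-leukocyte gene Ptprc (log axis) in each library, ordered by the ALLO minus ISO difference of the log2 ratio, with Sh2d1a last. Cd84 stays between 18.5 and 25.1 in all 4 libraries, Slamf8 is higher in ALLO, and Slamf9 is at 40.0 and 224 in ISO and 6.02 and 9.21 in ALLO.

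The members also differed in how their patterns over the 4 libraries resembled other genes. Likeness was measured as the Euclidean distance between centred log2 CPM profiles (prior count 2, which damps differences at low counts), among 12202 genes with a mean of at least 50 counts, the members left out. Among the members themselves Ly9 and Slamf6 were closest (distance 0.36) and Slamf8 and Slamf9 farthest apart (5.81). Among the genes searched, Ptprc was the second nearest of both Ly9 and Slamf6 (0.42 and 0.27), after Cd96, a receptor of T and NK cells, for Ly9 (0.37) and the urea transporter gene Slc14a1 for Slamf6 (0.22). Cd48 lay nearest to Arhgap30, a RhoGAP gene (0.04), and Slfn1, a schlafen gene (0.16). Arhgap30, with 247, 76, 4398 and 3540 counts, is also a neighbour on the chromosome, starting 378 kb before Slamf1. Cd84 was nearest to Gimap3, a lymphocyte GTPase gene (0.16), and Lilrb4a, an inhibitory receptor gene (0.22). For Slamf7 the nearest were Ctsw, a cathepsin gene of cytotoxic cells (0.38), and Cd180, a receptor gene of B cells and myeloid cells (0.39). Slamf8 was nearest to Serpina3f, a serpin gene (0.40), and to the co-stimulator gene Icos (0.49), and Sh2d1a to Eomes, a transcription factor of cytotoxic lymphocytes (0.13), and the semaphorin gene Sema4d (0.14). Slamf1 was nearest to Fam180a (0.15) and to Nuf2, a kinetochore gene (0.22). Slamf9 was nearest to the kinase gene Sik1 (0.07) and the bacterial sensor gene Nod2 (0.09), which had 79 and 102 counts in ISO and 380 and 458 in ALLO. The damping weighs most where ISO counts are few, as in Sh2d1a and Eomes (2 and 0 each), Slc14a1 (4 and 0), Icos (5 and 0) and Cd96 (6 and 0). With 4 libraries such likeness is a description only.

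Of 15 genes for proteins that bind SLAM receptors or carry their signals, 14 were tested, 10 rose, 1 fell and 3 did not pass, with a median log2 change of 3.48, where 18.4% of all tested genes rose and 14.8% fell. Sh2d1b1, which encodes EAT-2, had 4 and 0 counts in ISO and 238 and 288 in ALLO, a ratio of 107 with a 95% counting interval of 29.3 to 886 (edgeR adjusted p = 0.00653). It was kept by the filter through ALLO alone and could in practice only be called higher. Its related copy Sh2d1b2 had 0 counts in all 4 libraries, and reads that fit both copies may have been lost or assigned to either. Lck, a Src kinase of T cells, had 24 and 16 counts in ISO and 1099 and 1269 in ALLO (log2 change 5.58 ± 0.29, edgeR adjusted p = 0.00216). Prkcq, the kinase PKC-theta downstream of SAP and Fyn, had 24 and 17 counts against 616 and 416 (4.37 ± 0.42, edgeR adjusted p = 0.00412). Inpp5d, the lipid phosphatase SHIP1, had 307 and 124 counts against 4220 and 4984 (4.12 ± 0.47, edgeR adjusted p = 0.00532).

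Ptpn11, which encodes the broadly expressed phosphatase SHP-2, was the member of this list that fell, from 4812 and 5643 counts to 2608 and 3025 (log2 change -1.20 ± 0.21, edgeR adjusted p = 0.0141). The call was lost without ISO replicate 2 (-1.07, edgeR adjusted p = 0.0957). Its relative of blood cells Ptpn6, encoding SHP-1 and chosen after its values were seen, went the other way, from 215 and 69 counts to 3553 and 3964 (4.43 ± 0.57, edgeR adjusted p = 0.0067). The kinase Fyn itself, likewise chosen, had 579 and 349 counts in ISO and 1590 and 2278 in ALLO (1.75 ± 0.29, edgeR adjusted p = 0.0124). The 3 that did not pass were Becn1 (0.08), Pik3c3 (0.40) and Itgam (3.20, edgeR adjusted p = 0.0605), the first and second encoding autophagy proteins that associate with SLAMF1 and the third an integrin chain that works with SLAMF7 on macrophages. Of the exonic bases of Itgam 68.7% are shared with Gm49368 and of those of Becn1 43.9% with Cntd1, so both values are uncertain. Itgam passed as higher in 8 of 14 other fits (2.32 to 5.63), among them those without either ISO library.

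In all, 12 genes of lymphocyte programmes known to need SAP were read from the same fit. Of the 11 tested, 7 rose, 1 fell and 3 did not pass, with a median log2 change of 2.32, again beside 18.4% higher and 14.8% lower over all genes. Among those that rose, Icos, Ifng, Pdcd1, Gzmb and Prf1 were kept by the filter through ALLO alone. These genes could in practice only be called higher. Icos, the co-stimulator of follicular helper T cells, had 5 and 0 counts in ISO and 667 and 920 in ALLO (ratio 258, 95% counting interval 88.9 to 2665, edgeR adjusted p = 0.00441). Pdcd1, the PD-1 gene, had 22 and 6 counts against 246 and 455 (4.32 ± 0.66, edgeR adjusted p = 0.00997), and Gzmb, a granzyme gene, 9 and 24 against 459 and 410 (4.41 ± 0.54, edgeR adjusted p = 0.00599). Cd1d1, which encodes the molecule that presents lipids to NKT cells, had 80 and 72 counts against 382 and 558 (2.32 ± 0.29, edgeR adjusted p = 0.00608). Ifng, the interferon-gamma gene, was at 0 counts in both ISO libraries and at 63 and 57 in ALLO, at least 8.17-fold higher. Of its exonic bases 25.9% are shared with Gm49751, so that reads from that stretch may have been assigned differently. Several genes of helper T cells did not pass. Bcl6, the transcription factor of follicular helper cells, had 970 and 900 counts in ISO and 876 and 1433 in ALLO (-0.01, edgeR adjusted p = 0.974). ISO replicate 2 had 0 counts of Cd3e, Cd3d and Cd3g, so its 900 Bcl6 and 599 Maf counts are not a measure of helper T cells. Cxcr5, the homing receptor of follicular helper cells, had 60 and 5 counts against 213 and 106 (2.04, edgeR adjusted p = 0.201). Cxcr5 passed without ISO replicate 1 (4.66, edgeR adjusted p = 0.00547) and with a replicate block (2.57, edgeR adjusted p = 0.036). Il21 had 0 counts in both ISO libraries and 14 and 10 in ALLO and was not tested, and Il4 had 66 and 32 against 24 and 32 (-1.10, edgeR adjusted p = 0.2003). Zbtb16, which encodes PLZF, the factor of NKT cells that other tissues express too, fell from 3910 and 4924 counts to 187 and 416 (-4.20 ± 0.42, edgeR adjusted p = 0.00431).

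The 8 receptor genes and Cd244a lie in 1 cluster of 1031 kb on chromosome 1, from 171559193 to 172590568 (mm10), which allows the genes between and beside them to be read as a local comparison. Between the first and the last receptor, 16 other named protein-coding genes were tested, Cd244a included, of which 3 rose and 4 fell, with a median log2 change of -0.08, that is 18.8% higher and 25.0% lower, against 18.4% and 14.8% of all tested genes. The genes that rose there were Cd244a, Ncstn, a subunit gene of gamma-secretase, and the potassium channel gene Kcnj10, which had 8 and 6 counts in ISO and 201 and 178 in ALLO (4.45 ± 0.45, edgeR adjusted p = 0.00448). Kcnj10 was kept by the filter through ALLO alone and could in practice only be called higher. Casq1, the calsequestrin gene of striated muscle, fell from 618 and 1223 counts to 18 and 16 (-6.05 ± 0.49, edgeR adjusted p = 0.00338). Ncstn (0.82 ± 0.19, edgeR adjusted p = 0.0287) lost its call when either ISO library was left out (0.76 and 0.84, edgeR adjusted p = 0.206 and 0.175), without ALLO replicate 1 (0.73, edgeR adjusted p = 0.0522) and with a replicate block (0.81, edgeR adjusted p = 0.0551). Apart from Cd244a, these genes all lie beyond Slamf6, between it and Slamf8, and none lies among Ly9, Slamf7, Cd48, Slamf1, Cd84 and Slamf6.

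Within 1 Mb on either side, 37 further genes were tested, with 16 higher (43.2%) and 5 lower (13.5%), against the same shares of all genes. Among the higher ones, Fcrlb, Fcrla, Aim2, Ifi206 and Ifi214 were kept by the filter through ALLO alone. These genes could in practice only be called higher, which adds to the share that rose. Several of those that rose belong to other families of leukocyte genes. Fcgr3, an activating Fc receptor gene, had 494 and 189 counts in ISO and 5794 and 6285 in ALLO (3.85 ± 0.50, edgeR adjusted p = 0.00681), and Ifi213, a gene of the interferon-inducible p200 family, 42 and 31 against 2059 and 1435 (5.30 ± 0.36, edgeR adjusted p = 0.00256). Nectin4, an adhesion gene of epithelia, had 15 and 16 counts against 224 and 265 (3.67 ± 0.36, edgeR adjusted p = 0.0042). Pcp4l1, a relative of the calmodulin regulator Pcp4, fell from 2963 and 2932 to 118 and 191 (-4.57 ± 0.27, edgeR adjusted p = 0.00216).

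**Figure D4:**
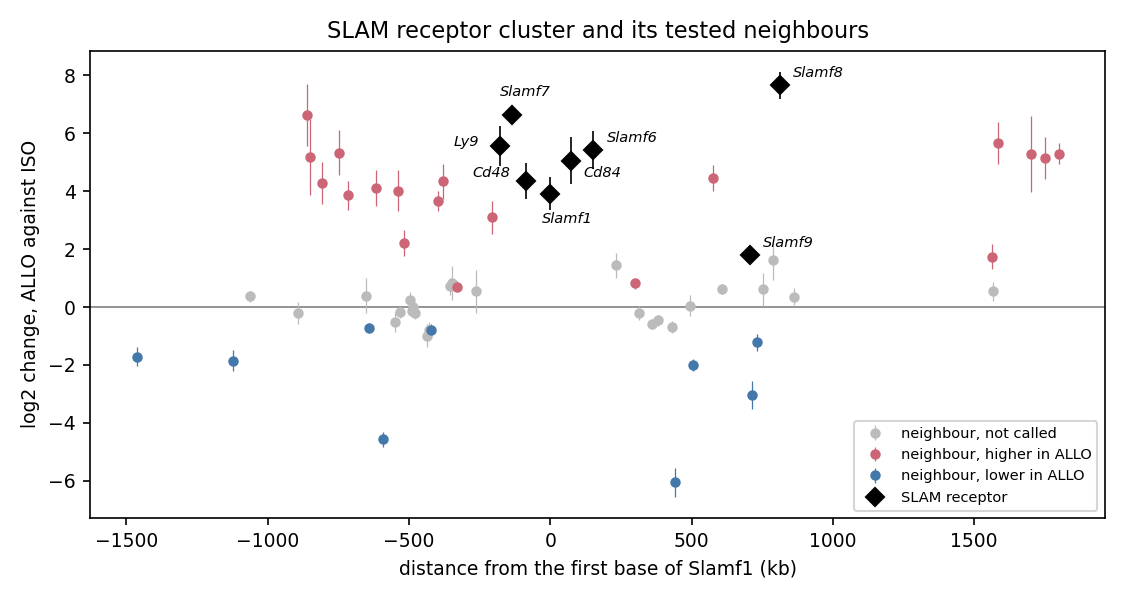
Log2 change between ALLO and ISO (bars, 1 standard error) of the 8 SLAM receptor genes (diamonds) and of their 53 tested neighbours against the distance of each gene's first base from that of Slamf1 in kilobases. The receptors lie between 1.80 and 7.65, and the neighbours between -6.05 and 6.63.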

How the data were processed

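Raw read counts per gene from 2 ISO and 2 ALLO libraries were deposited by the authors as 1 table in the column layout of featureCounts. The submitters' processing notes name featureCounts, Subread 1.6.4, R 4.0.3, DESeq2 1.30.0 and the build mm10. The sources used here do not give the aligner, the annotation release, the strand mode or how reads that fit several genes were handled. Per the labels' protocols, ribosomal RNA was removed and libraries were amplified by PCR, so intervals cover counting error only. Gene symbols were matched for 54723 of 54752 IDs through GENCODE M21. Coordinates and gene lengths are those of the deposited table.

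From the counts as deposited, filterByExpr (at its default minimum of 10) kept 16498 genes. These were scaled by TMM and fitted with the quasi-likelihood functions of edgeR 4.0.16 on group alone, and p-values were adjusted by Benjamini-Hochberg over all tested genes. The test is two-sided. Standard errors of log2 changes are approximate, taken as the absolute log2 change over the square root of the test's F statistic. CPM are counts over TMM-scaled library sizes, and TPM were computed from the counts and the deposited lengths. Among genes with 1 to 20 counts, 68.0% to 74.6% had even counts, as when each mate of a pair is counted, so the floor was set at 6 counts (3 read pairs) per library and 95% exact intervals of ratios were taken on counts divided by 2.

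The members and gene lists were chosen with earlier results of these data known. Lists came from textbook knowledge, and named genes were all members, Ptprc, from each list up to 4 genes of smallest adjusted p in the commoner direction and up to 2 in the rarer, and the 2 likest genes of each member. The procedure was also run on simulated counts with far fewer changed genes than were called here, which does not show how it performs on these data. Calculations used Python 3.11.15 with matplotlib 3.10.9, scipy 1.17.1 and pandas 2.3.3, and R 4.3.3 with DESeq2 1.42.0 and limma 3.58.1.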

Additional observations from a re-analysis of the deposited data

How the results depend on the processing

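All 9 members were called higher in each of 14 other fits: DESeq2 size factors, upper quartile or library size alone as scaling, a filter at a mean count of 10, no filter, limma-voom, DESeq2's Wald test, immunoglobulin and T cell receptor genes removed, halved counts, a replicate block, and each library left out in turn. When a library was left out, the remaining sample of that group was assumed to vary like the other group. The number of all genes called ranged from 3603 (without ISO replicate 2) to 4651 (without ALLO replicate 2) when 1 library was left out, against 5469 with all. The libraries share only their replicate numbers, and their deviations from the group means correlated at 0.10 over genes, which with 2 pairs does not show a pairing. With the replicate block 4873 genes were called, among them 9 members, 12 partners, 9 genes of the listed lymphocyte programmes and 24 neighbours. For 50 further genes (those named, and all tested genes of the partner and SAP lists) 700 such fits were made, of which 8 lost a call (Ncstn 4, Prf1 2, Ptpn11 and Csk 1 each), 10 gained one (Itgam 8, Cxcr5 2) and 6 changed direction, all of Bcl6, which passed in no fit. Its -0.01 became 0.0085 with DESeq2 size factors, 0.0086 in DESeq2's Wald test, 0.014 with immunoglobulin and T cell receptor genes removed and 0.18 with library size alone, and ranged from -0.30 to 0.26 when 1 library was left out. Prf1 was not called without either ALLO library (3.16 and 3.15, edgeR adjusted p = 0.0699 and 0.0627), nor Csk without ISO replicate 2 (1.31, 0.0622). Beside summed macrophage genes in place of Ptprc the median log2 ratio difference of 8 members was 1.50 in place of 0.16, and Cd48 changed from -0.90 to 0.44, since the reference moves every member by 1.35. The summed T cell genes Cd3e, Cd3d and Cd3g gave no value, as they had 0 counts in ISO replicate 2. Low ISO counts limit the folds of Sh2d1a, Slamf1, Slamf6 and Slamf8, which had at most 17 counts in an ISO library.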
